A study of Mus musculus with 12 samples.

Results

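Gene expression was compared between kidneys of mice labelled with L.J. at 10 mg/kg, without busulfan, and kidneys of control mice. Each group had 3 RNA-seq libraries (6 of the 12 in the series), and all mice were 8-week-old outbred ICR mice. All genes of the deposited table were considered, and 11863 of 21004 were tested, those with FPKM 1 or more in 3 or more of the 6 libraries. FPKM counts fragments relative to gene length and sequencing total. The other 6 libraries of the series are busulfan plus L.J. and busulfan, and are quoted only beside single genes. L.J. is written with these letters in the sample descriptions and as Lu in the titles, while the design text speaks of FMT. The labels explain neither of these terms and give no sex, no vehicle, no length of treatment and no time of collection. The comparison asks what L.J. did in kidneys that had received no busulfan. The labels do not state that each library is a different animal, so the p-values reflect variation among libraries, which may be technical.

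The kidney filters blood in the glomerulus and then recovers water, salts, glucose and amino acids along the nephron. The proximal tubule takes back most of the filtrate, the thick ascending limb takes back salt without water, and the collecting duct sets the final water content under vasopressin. Kidney transcription also follows the circadian clock. In that clock ARNTL and CLOCK switch on the Per, Cry and Nr1d genes and the output gene Dbp, and the Nr1d proteins repress Arntl. The products of Per, Nr1d and Dbp peak at another time of day from Arntl, while Cry1 is listed here with Arntl in the morning arm.

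All 6 libraries carried kidney transcripts. The phosphate transporter Slc34a1 of the proximal tubule lay between 3178 and 3387 FPKM in L.J. alone and between 2466 and 3287 FPKM in control. FPKM sums per library ran from 486116 to 507383. The absolute depth is unknown. Relative depths estimated from the nonzero values of 37 genes, each detected in only some libraries, ran from 0.973 to 1.043. Only genes whose nonzero values were close across libraries entered. That choice draws the estimates together, so they cannot show that the depths were equal. On the first principal component, with 35.1% of the variance, L.J. alone 1, 2 and 3 scored 21.2, 7.65 and 3.22, and control 1, 2 and 3 scored -15.2, -14.9 and -2.04. The groups did not overlap on it, but L.J. alone 3 and control 3 lay close to each other. Deviations of genes from their mean over the 6 libraries correlated with GC content (Spearman -0.22 in control 2 to 0.28 in L.J. alone 1). With transcript length the range was -0.16 in L.J. alone 2 to 0.23 in L.J. alone 3. The part of these trends in the component was not tested. Spearman correlations across genes were between 0.984 and 0.987 within L.J. alone, between 0.985 and 0.989 within control and between 0.978 and 0.986 across the groups.

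No gene was called at a Benjamini-Hochberg adjusted p under 0.05 in limma on log2(FPKM + 1), which is 0% of those tested. The smallest adjusted p was 0.0838, shared by 5 genes, and 7 genes were under 0.1. At an unadjusted p under 0.05 there were 903 genes (7.61% of those tested), 350 higher (2.95%) and 553 lower (4.66%) in L.J. alone. In 1532 genes (12.9%) the 3 L.J. alone libraries and the 3 control libraries did not overlap, 562 of them higher (4.74%) and 970 lower (8.18%) in L.J. alone. That split turned with the scaling: it was 860 higher and 709 lower after quantile normalization, and 795 higher and 738 lower after each library was scaled to its median. Down-weighting variable libraries gave 5 calls. Leaving out L.J. alone 2 gave 2 calls and leaving out control 3 gave 3, while without control 1 the count at an unadjusted p under 0.05 was 579. Most differences were small, with a 5th percentile of -0.29, a median of -0.03 and a 95th percentile of 0.22 on the log2 scale. At least 1 on the log2 scale (in either direction) was reached by 69 genes, 18 higher and 51 lower in L.J. alone. Since no gene passed, higher and lower below describe the values of these libraries, and log2 differences are L.J. alone minus control on the log2(FPKM + 1) scale, which understates differences of low genes.

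**Figure D1:**
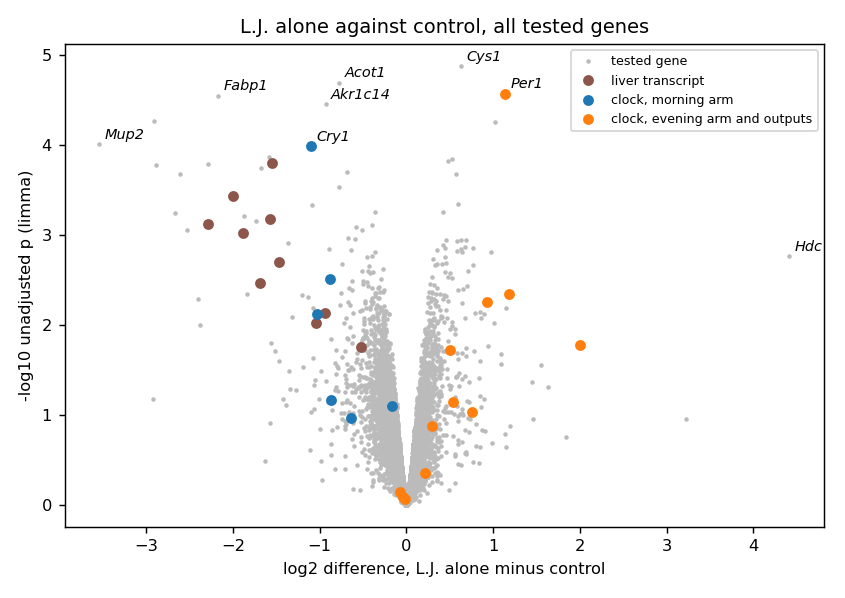
Each point is 1 of the 11863 tested genes, with the log2 difference (L.J. alone minus control) on the x axis and -log10 of the unadjusted limma p on the y axis, and 3 gene lists in colour. Liver transcripts lie to the left, the morning-arm clock genes to the left and several evening-arm clock genes to the right, and no point passed the adjusted threshold.

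Of the 5 genes with the smallest adjusted p, Cys1 (Entrez 12879, chromosome 12, 24665833 to 24681886 in GRCm38), which encodes the primary-cilium protein cystin and is mutated in a mouse model of polycystic kidney disease, was 52.2, 48.7 and 49.7 FPKM in L.J. alone 1, 2 and 3, against 33.7, 31.8 and 30.9 FPKM in control 1, 2 and 3. The means were 50.2 ± 1.77 FPKM in L.J. alone and 32.1 ± 1.44 FPKM in control (SD, n = 3 each), a log2 difference of 0.63 (SE 0.06, limma adjusted p = 0.0838). The libraries within each group were close together and the groups were well apart. Akr1c14 (Entrez 105387, chromosome 13, 4048991 to 4090560), an aldo-keto reductase that works on steroids, was 101, 107 and 129 FPKM in L.J. alone, against 192, 229 and 220.1 FPKM in control, a log2 difference of -0.93 (SE 0.11, limma adjusted p = 0.0838). No window of 50 bases of its transcript occurs in another Akr1c transcript of GENCODE M21. Acot1 (Entrez 26897, chromosome 12, 84009502 to 84017670), a cytosolic thioesterase that splits long-chain acyl-CoA, was 16.6, 14.1 and 16.5 FPKM in L.J. alone, against 27.9, 28.9 and 26.0 FPKM in control, a log2 difference of -0.77 (SE 0.08, limma adjusted p = 0.0838). Of its windows 18.3% occur in another Acot transcript, so some reads may be shared. The other two, Fabp1 and Per1, are described with the liver transcripts and the clock.

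Among the remaining genes that were higher in L.J. alone with the smallest p, Zfp868, a zinc finger gene, was 8.85, 11.4 and 8.21 FPKM in L.J. alone, against 3.86, 4.61 and 3.93 FPKM in control (log2 difference 1.02, limma adjusted p = 0.0938). Clu, which encodes the secreted chaperone clusterin and is induced in injured tubules, was 139, 126 and 121 FPKM in L.J. alone, against 87.5, 84.2 and 94.1 FPKM in control (0.53, limma adjusted p = 0.132). Glb1, the lysosomal beta-galactosidase, was 124, 100.3 and 104 FPKM in L.J. alone, against 74.0, 70.5 and 73.4 FPKM in control (0.58, limma adjusted p = 0.132). The genes named in each direction were picked by p among genes whose groups did not overlap, so their lack of overlap was set by that choice. The kinase gene Pim3 (0.48), the ubiquitin ligase gene Rnf186 (0.59), Tmppe (0.42), Eddm3b (0.46), the calcium- and phosphate-regulating hormone gene Stc1 (0.63), the neutral amino acid transporter gene Slc6a19 (0.58) and the melanosome transport gene Mlph (0.42) completed the 12, with limma adjusted p between 0.132 and 0.346. Tmppe lies within Glb1 on the same strand, so reads of these 2 genes may be shared. On the lower side, Cck, the gene of the peptide hormone cholecystokinin, was 0.42, 0.52 and 0.51 FPKM in L.J. alone, against 4.61, 4.22 and 2.03 FPKM in control (-1.59, limma adjusted p = 0.132). Arrdc3, an arrestin-domain adaptor of receptor trafficking, was 23.2, 27.9 and 23.0 FPKM in L.J. alone, against 44.1, 36.1 and 40.9 FPKM in control (-0.69, limma adjusted p = 0.132).

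Transcripts of genes expressed mainly in liver, most of them for secreted proteins, were lower in every L.J. alone library than in every control library. This held for 12 of the 12 listed liver genes, 10 of them tested. Of all genes listed, 6.09% were lower without overlap and 3.56% higher. Among tested genes these shares were 8.18% and 4.74%, and they suit the lists below whose members were all tested. The median log2 difference over the 12 was -1.51. Alb (Entrez 11657, chromosome 5, 90460870 to 90476602), which encodes serum albumin, was 2.89, 5.40 and 4.94 FPKM in L.J. alone, against 12.6, 33.1 and 19.2 FPKM in control (log2 difference -2.0, SE 0.33, limma adjusted p = 0.209). The apolipoprotein gene Apoa1 was 1.22, 0.78 and 1.60 FPKM in L.J. alone, against 4.58, 14.2 and 5.16 FPKM in control. Its partner in high-density lipoprotein, Apoa2, was 1.59, 3.21 and 5.65 FPKM in L.J. alone, against 7.71, 20.5 and 11.8 FPKM in control. Control 2 was the highest library for both, and L.J. alone was low in all its libraries. The thyroxine carrier gene Ttr was 0.46, 0.74 and 0.89 FPKM in L.J. alone, against 2.97, 7.18 and 2.86 FPKM in control, and the fibrinogen gene Fgb 0.12, 0.12 and 0.36 FPKM in L.J. alone, against 2.02, 4.0 and 1.83 FPKM in control. Fga, a fibrinogen gene with the highest level of its 3 in these libraries, stood only just apart, at 4.32, 5.59 and 5.20 FPKM in L.J. alone, against 7.61, 9.94 and 5.81 FPKM in control. The fetuin gene Ahsg, outside the list, was 0.51, 0.69 and 0.68 FPKM in L.J. alone, against 3.27, 6.99 and 3.08 FPKM in control (-1.67, limma adjusted p = 0.132). Summed over the 12 genes, the level was 12.1, 18.6 and 23.0 FPKM in L.J. alone 1, 2 and 3, against 48.2, 122 and 60.7 FPKM in control 1, 2 and 3. Tat, a liver enzyme of tyrosine breakdown, was listed at 0 in L.J. alone 2 and 3 and was at most 0.58 FPKM in any control library. In bulk tissue, fewer cells of a type and less RNA per cell cannot be told apart, here and below, and the part of liver cells or liver RNA in these values was not tested.

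The base sequence upstream of Alb is shown for matches to the D-box, the motif of the clock output factor DBP. A link between the levels of Dbp and Alb was not tested. The 250 bases before its start (chr5:90460620-90460869, plus strand, RefSeq GRCm38.p6) are given with matches to TTATGTAA, searched on both strands as a D-box, in capitals.
Alb: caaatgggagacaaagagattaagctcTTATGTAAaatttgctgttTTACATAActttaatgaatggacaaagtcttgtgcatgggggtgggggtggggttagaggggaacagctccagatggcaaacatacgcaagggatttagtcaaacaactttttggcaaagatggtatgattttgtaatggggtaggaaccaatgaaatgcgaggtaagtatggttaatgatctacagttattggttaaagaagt
They hold TTATGTAA from 223 to 216 bases before the start and its reverse complement from 204 to 197 bases before it. TTATGTAA was found in 0.819% of the 32851 promoters of the same length in the table. Of the 10 liver genes with a promoter entry, Alb was the 1 gene with this motif. Each gene was counted over all its starts, so this count and the share of promoters are not a like comparison. The match is a description of letters and not a measured binding site. Stretches that DBP may bind with other letters are not marked.

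Major urinary proteins, pheromone carriers made mainly in male liver, gave the widest downward differences. Mup2 (Entrez 17841, chromosome 4) was 0.96, 1.71 and 5.10 FPKM in L.J. alone, against 26.8, 66.7 and 26.2 FPKM in control (log2 difference -3.54, SE 0.48, limma adjusted p = 0.132). Mup15 was 0.52, 1.47 and 1.83 FPKM in L.J. alone, against 12.7, 27.8 and 10.6 FPKM in control (-2.91, limma adjusted p = 0.0938), and Mup19 was 0.35, 2.21 and 1.31 FPKM in L.J. alone, against 13.3, 27.3 and 8.98 FPKM in control (-2.88). Every 50-base window of these 3 transcripts (100%) occurs in another Mup transcript, so the separate values are uncertain. Mup3 and Mup20 share only 14.9% and 4.66% of their windows. Mup3 was 0.48, 0.62 and 2.20 FPKM in L.J. alone, against 5.14, 16.5 and 7.26 FPKM in control, and Mup20 was 0.08, 0.16 and 0.24 FPKM in L.J. alone, against 1.10, 4.53 and 1.84 FPKM in control. The sum over 21 Mup genes was 6.24, 9.16 and 22.7 FPKM in L.J. alone, against 88.7, 261 and 89.2 FPKM in control. Serpina1c, an alpha-1-antitrypsin gene with 73.3% of its windows shared, was 0.61, 0.86 and 1.44 FPKM in L.J. alone, against 6.13, 15.7 and 6.14 FPKM in control (-2.29, limma adjusted p = 0.132). Fabp1 (Entrez 14080, chromosome 6, 71199879 to 71205034), the fatty acid binding protein of liver, was 0.60, 0.74 and 1.02 FPKM in L.J. alone, against 6.78, 10.7 and 4.66 FPKM in control (-2.17, SE 0.24, limma adjusted p = 0.0838). In the busulfan-treated groups Alb was 5.21, 7.21 and 5.17 FPKM with L.J. and 22.1, 12.2 and 29.7 FPKM without it.

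**Figure D2:**
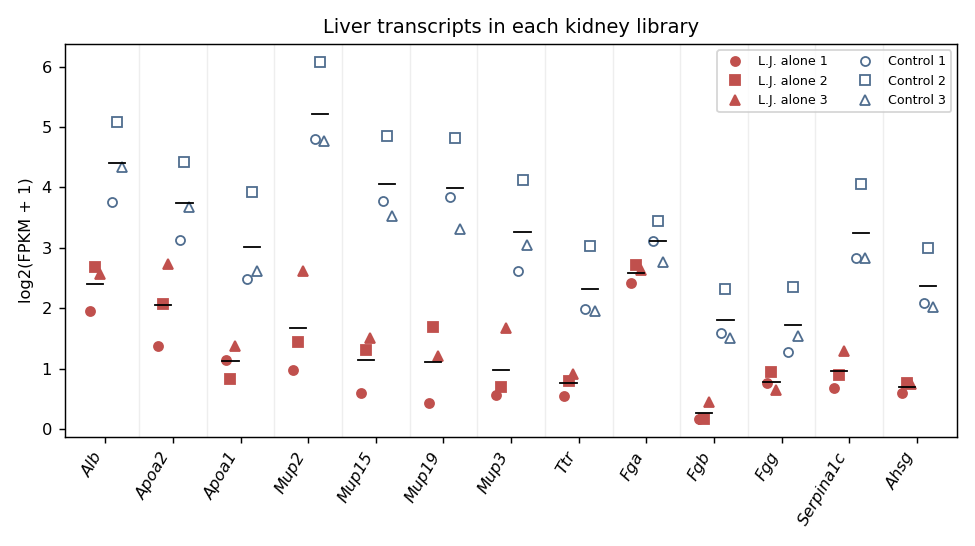
Levels of 13 liver transcripts, as log2(FPKM + 1) on the y axis, in the 3 L.J. alone libraries (filled symbols, left) and the 3 control libraries (open symbols, right), with group means as bars. The L.J. alone libraries lie below the control libraries for each gene, and control 2 is the highest library for each.

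Genes of the circadian clock were displaced in opposite directions in its arms. Of the 6 morning-arm genes, 4 were lower in L.J. alone without overlap, with a median log2 difference of -0.87. Of the 13 evening-arm and output genes, 6 were higher without overlap and none lower, with a median of 0.51. The morning-arm genes were all tested, and 8.18% of tested genes were lower without overlap. For the evening arm, not all of which was tested, the shares of all genes are 6.09% lower and 3.56% higher. Set against the control mean, the morning-arm median was -0.32, -1.33 and -0.79 in L.J. alone 1, 2 and 3, and lay between -0.27 and 0.06 in control. The evening-arm median was 0.06, 0.91 and 0.35 in L.J. alone 1, 2 and 3, and lay between -0.13 and 0.06 in control. L.J. alone 2 was shifted furthest in both and L.J. alone 1 least. Without L.J. alone 2 the median differences were -0.53 for the morning arm and 0.25 for the evening arm.

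Per1 (Entrez 18626, chromosome 11, 69095108 to 69109965), a repressor of the clock that glucocorticoids also induce, was 7.73, 10.7 and 8.98 FPKM in L.J. alone, against 3.69, 3.98 and 3.14 FPKM in control (log2 difference 1.13, SE 0.13, limma adjusted p = 0.0838). Cry1 (Entrez 12952, chromosome 10, 85131700 to 85185054), the repressor that pairs with the PER proteins, was 1.24, 0.97 and 1.06 FPKM in L.J. alone, against 4.37, 2.68 and 3.53 FPKM in control (-1.10, SE 0.15, limma adjusted p = 0.132). Both genes had close values within L.J. alone, and the groups were well apart. The 250 bases before the start of each are shown because these genes differed in opposite directions while both hold an E-box, the CACGTG to which ARNTL and CLOCK bind; searched motifs are in capitals, on both strands.
Per1: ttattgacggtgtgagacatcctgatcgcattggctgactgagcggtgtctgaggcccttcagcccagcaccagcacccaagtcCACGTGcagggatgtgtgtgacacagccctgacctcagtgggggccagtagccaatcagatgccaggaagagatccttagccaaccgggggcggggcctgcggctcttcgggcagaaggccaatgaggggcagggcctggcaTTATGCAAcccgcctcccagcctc
Cry1: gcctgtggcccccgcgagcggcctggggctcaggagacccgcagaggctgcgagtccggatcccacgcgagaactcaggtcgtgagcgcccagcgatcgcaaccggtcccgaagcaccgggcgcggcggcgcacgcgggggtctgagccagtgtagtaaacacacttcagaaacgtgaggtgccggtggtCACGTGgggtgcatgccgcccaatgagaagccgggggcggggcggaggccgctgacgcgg
The first is chr11:69098699-69098948 on the plus strand, 1 of 2 Per1 starts in the table. The second is chr10:85185055-85185304 on the minus strand (RefSeq GRCm38.p6). Of the 2 Per1 starts the one to print was chosen by its number of motif matches, so the shares of all promoters below are not a like comparison for it. Per1 holds CACGTG from 166 to 161 bases before the start and the D-box variant TTATGCAA from 24 to 17 bases before it. Cry1 holds CACGTG from 60 to 55 bases before its start. CACGTG was found in 6.02% and TTATGCAA in 0.694% of the 32851 promoters. With an entry in the table, 1 of 5 morning-arm genes (Cry1) and 4 of 11 evening-arm genes (Bhlhe41, Ciart, Per1 and Tef) held CACGTG. A gene was counted if any of its starts held it, so these counts and the share of promoters are not a like comparison. A window without CACGTG says only that these letters are absent there.

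The other clock genes were more uneven. Dbp, the D-box factor and a direct clock output, was 3.86, 37.5 and 7.31 FPKM in L.J. alone, against 2.05, 2.0 and 1.65 FPKM in control (2.0, SE 0.66, limma adjusted p = 0.588). Every L.J. alone library was above control, but L.J. alone 2 was far above the other two. Nr1d1, which represses Arntl, was 29.7, 57.6 and 38.9 FPKM in L.J. alone, against 11.3, 22.9 and 20.1 FPKM in control, and its relative Nr1d2 was 13.4, 27.1 and 21.6 FPKM in L.J. alone, against 8.75, 12.6 and 8.95 FPKM in control. Arntl itself was 10.1, 3.64 and 8.05 FPKM in L.J. alone, against 15.1, 13.6 and 15.7 FPKM in control (-1.03, SE 0.29, limma adjusted p = 0.509). Clock, the partner gene of Arntl, was 9.46, 8.39 and 9.77 FPKM in L.J. alone, against 10.0, 10.5 and 10.7 FPKM in control. The groups did not overlap for either gene, though for Clock the gap was small. The deubiquitinase gene Usp2 was 35.2, 56.2 and 37.7 FPKM in L.J. alone, against 32.3, 29.9 and 26.3 FPKM in control. Per2, Per3, Ciart and Tef overlapped between the groups, and each was highest in L.J. alone 2. Npas2 and Nfil3 overlapped too, and each was lowest in L.J. alone 2, at 2.13 FPKM for Npas2 and 2.46 FPKM for Nfil3. Of the 14 glucocorticoid-response genes, which share Per1 with the clock list, 3 were higher without overlap, where 3.56% of all genes were: Per1, Klf15 (0.30) and Klf9 (0.22).

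**Figure D3:**
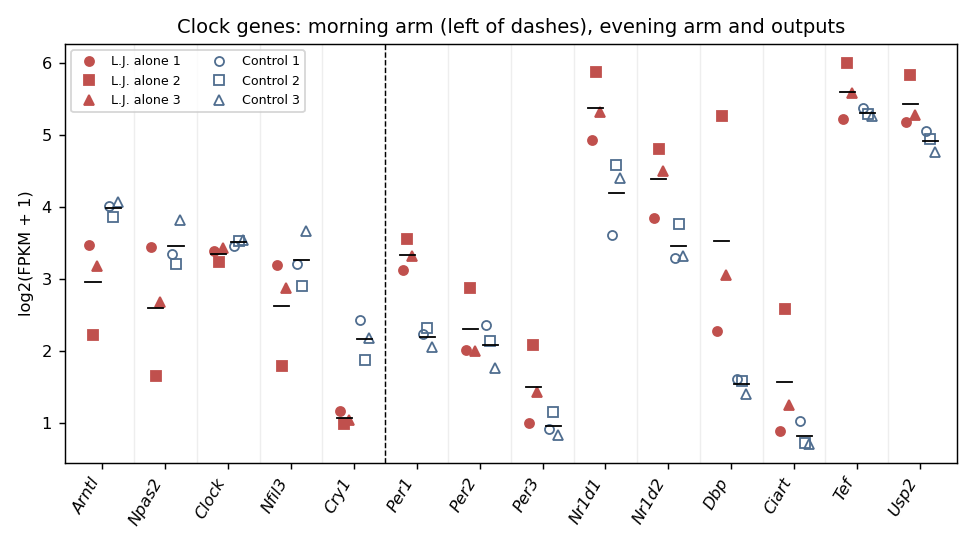
Levels of 14 clock genes, as log2(FPKM + 1) on the y axis, in the L.J. alone libraries (filled, left) and the control libraries (open, right), with group means as bars and a dashed line between the arms. L.J. alone 2 (filled square) is the lowest filled symbol for each morning-arm gene and the highest for each evening-arm gene.

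Several transcripts of the medullary nephron were lower in L.J. alone. The urea transporter gene Slc14a2 (Entrez 27411, chromosome 18), which serves the inner medulla, was 0.00, 1.65 and 0.16 FPKM in L.J. alone, against 9.07, 12.4 and 3.40 FPKM in control (log2 difference -2.53, SE 0.48, limma adjusted p = 0.311). Of the 8 thin-limb genes 3 were lower without overlap (Slc14a2, Fst and the water channel gene Aqp1), with a list median of -0.39, where 6.09% of all genes were lower without overlap. Only 5 of the 8 were tested. Fst was low and barely apart, at 0.19, 0.97 and 0.95 FPKM in L.J. alone, against 1.09, 2.84 and 1.0 FPKM in control. Aqp1 differed by only -0.14. Of the 12 thick-limb genes 2 were lower without overlap, with a list median of -0.35. Among them was the tight-junction gene Cldn19, at 7.12, 7.57 and 5.16 FPKM in L.J. alone, against 11.6, 14.7 and 7.86 FPKM in control. Control 3 lay next to the L.J. alone libraries. Umod, the gene of uromodulin, was 486, 667 and 696 FPKM in L.J. alone, against 1064, 873 and 652 FPKM in control, and Slc12a1, the salt transporter blocked by loop diuretics, was 69.9, 153 and 137 FPKM in L.J. alone, against 206, 209 and 141 FPKM in control. The prostaglandin receptor gene Ptger3 was 5.32, 10.9 and 11.5 FPKM in L.J. alone, against 19.9, 18.4 and 11.2 FPKM in control. For Umod, Slc12a1 and Ptger3 control 3 fell within the range of the L.J. alone values. The thick-limb sum was 835, 1208 and 1195 FPKM in L.J. alone, against 1682, 1451 and 1172 FPKM in control, which overlapped.

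In the collecting duct, the vasopressin-regulated water channel gene Aqp2 was 25.4, 31.4 and 33.6 FPKM in L.J. alone, against 44.7, 56.8 and 44.2 FPKM in control (log2 difference -0.67, SE 0.13, limma adjusted p = 0.342). The vasopressin receptor gene Avpr2 was 3.65, 4.31 and 4.81 FPKM in L.J. alone, against 6.84, 5.72 and 5.57 FPKM in control. These were the 2 of 10 principal-cell genes lower without overlap, where 6.09% of all genes and 8.18% of tested genes were. The list median was -0.17, or -0.10 without L.J. alone 1 and -0.11 without control 3. The intercalated-cell list of the same duct was mixed. Of its 13 genes none was lower and 2 were higher without overlap, where 4.74% of tested genes were higher. The 2 were the transcription factor genes Foxi1 and Hmx2 (log2 difference 0.30). Foxi1 was 11.6, 12.7 and 12.03 FPKM in L.J. alone, against 9.28, 10.1 and 11.02 FPKM in control. Aqp6 (-0.52) and Slc4a1 (-0.37) were lower in L.J. alone with overlap, and the list median was -0.08. The labels do not say which part of the kidney was taken, and the part of medulla in each library was not tested. Podocyte and endothelial lists overlapped, with medians of -0.26 and -0.22, and for both L.J. alone 1 was the lowest library; without it the podocyte median was -0.04.

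A few proximal transport genes were higher in L.J. alone. The sodium-glucose cotransporter gene Slc5a2 was 243, 256 and 224 FPKM in L.J. alone, against 207, 185 and 214 FPKM in control. It was the 1 of 12 genes of the first proximal segments higher without overlap, where 3.56% of all genes and 4.74% of tested genes were. The median of that list was 0.15, and it was 0.04 without control 1 and 0.26 without control 3. In the last proximal segment none of 10 genes was higher and 1 was lower without overlap, where 8.18% of tested genes were lower. The median of that segment was -0.04. Against a share of 4.74% higher among tested genes, 3 of 16 amino acid transport genes were higher without overlap and none lower. They were Slc6a19, the transporter lost in Hartnup disease, at 81.9, 93.3 and 98.0 FPKM in L.J. alone, against 51.8, 62.1 and 68.7 FPKM in control; Slc7a7, the basolateral exporter of dibasic amino acids, at 210, 210 and 198 FPKM in L.J. alone, against 159, 152 and 184 FPKM in control; and the cystinuria gene Slc7a9, at 69.2, 75.2 and 78.0 FPKM in L.J. alone, against 57.5, 58.9 and 66.8 FPKM in control. The list median was 0.03, so most of the list did not share this. Kl, the gene of the FGF23 coreceptor Klotho, was 239, 228 and 248 FPKM in L.J. alone, against 189, 179 and 203 FPKM in control (0.33, SE 0.07, limma adjusted p = 0.392).

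**Figure D4:**
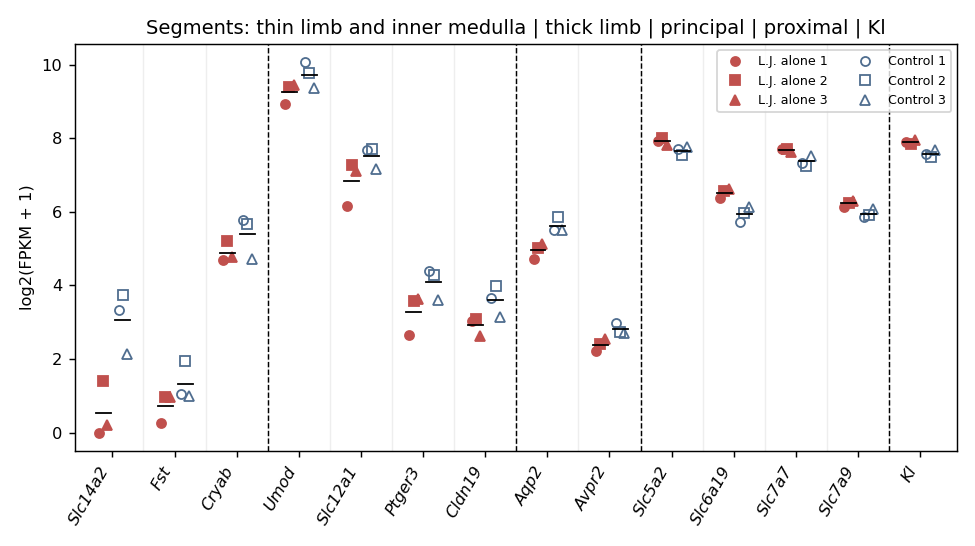
Levels of 14 nephron genes, as log2(FPKM + 1) on the y axis, in the L.J. alone libraries (filled, left) and the control libraries (open, right), with group means as bars and dashed lines between segments. Slc14a2 and Aqp2 lie lower in L.J. alone, Umod and Ptger3 overlap through control 3, and Slc6a19, Slc7a7 and Kl lie higher.

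Among metabolic lists, 6 of 19 cholesterol synthesis and uptake genes were lower without overlap and none higher, with a median of -0.21, where 6.09% of all genes were lower without overlap. Control 3 was the highest library of this list, and without it the median was -0.08. The sterol oxidase gene Msmo1 was 22.1, 21.6 and 22.3 FPKM in L.J. alone, against 27.2, 26.6 and 34.4 FPKM in control (log2 difference -0.39, SE 0.10, limma adjusted p = 0.504). Insig1 (-0.50), which holds back sterol-sensing activation, Idi1 (-0.54), Sqle (-0.35) and Cyp51 (-0.47), enzymes of the synthesis, were also among the 6. Srebf1, the regulator of fatty acid synthesis, was 8.59, 7.97 and 6.89 FPKM in L.J. alone, against 9.29, 9.56 and 16.0 FPKM in control, while the fatty acid synthesis list had a median of 0.03. Of 22 genes of fatty acid oxidation and PPARA response 4 were lower without overlap (Acot1, Fabp1, Cyp4a10 and Acadvl), with a median of -0.15, or -0.10 without L.J. alone 1 or without control 2. Fabp1 also moved with the liver transcripts, whose sums are given above. Fat-cell markers overlapped between the groups, with sums over 12 genes of 135, 520 and 212 FPKM in L.J. alone, against 113, 122 and 276 FPKM in control, and their part in the lipid genes was not tested.

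Stress and signalling genes gave small and mixed differences. Their counts stand beside 3.56% of all genes higher and 6.09% lower without overlap, or 4.74% and 8.18% of tested genes. Dusp1, a phosphatase that ends MAP kinase signalling, was 28.3, 18.6 and 23.9 FPKM in L.J. alone, against 14.8, 11.3 and 14.0 FPKM in control (log2 difference 0.77, SE 0.16, limma adjusted p = 0.346), and the stress factor gene Atf3 was 1.82, 1.25 and 1.26 FPKM in L.J. alone, against 0.54, 0.66 and 0.48 FPKM in control. Junb was lower, at 4.56, 4.75 and 5.69 FPKM in L.J. alone, against 7.25, 7.37 and 5.96 FPKM in control. Over the 21 immediate early genes 4 were higher and 2 lower without overlap, and the median was 0.06. Phlda1 was among the higher ones, at 8.31, 8.98 and 9.26 FPKM in L.J. alone, against 7.04, 6.97 and 7.10 FPKM in control. Ddit3, the gene of the stress factor CHOP, was 12.6, 9.77 and 15.4 FPKM in L.J. alone, against 8.12, 8.19 and 6.42 FPKM in control (0.65, SE 0.16, limma adjusted p = 0.496). Its list, the integrated stress response with 12 genes, had 2 higher and none lower without overlap and a median of 0.02. The endoplasmic reticulum stress list, of 13 genes, had 4 lower and 1 higher without overlap, with a median of -0.16, or -0.05 without control 1. The lower ones were Xbp1, a regulator of the unfolded protein response, at 32.9, 38.6 and 40.7 FPKM in L.J. alone, against 51.6, 44.0 and 42.5 FPKM in control, and the chaperone genes Sdf2l1 (-0.46), Pdia6 (-0.29) and Dnajc3 (-0.21). The higher one was Herpud1, which serves degradation of misfolded proteins, at 99.6, 143 and 119 FPKM in L.J. alone, against 92.5, 73.9 and 70.4 FPKM in control. Of 12 heat shock genes 3 were higher without overlap (Dnajb1, Hspa8 and Bag3) and the median was 0.20, or 0.11 without control 3 and 0.31 without L.J. alone 1. Dnajb1, a co-chaperone, was 20.0, 17.4 and 23.5 FPKM in L.J. alone, against 11.3, 16.4 and 10.6 FPKM in control, while Hspa1a overlapped, with control 2 at 10.2 FPKM above L.J. alone 2 at 7.0 FPKM. Of 18 interferon-response genes 2 were higher without overlap, Xaf1 and Ifi27l2a, and the median was 0.38, or 0.19 without L.J. alone 3. The list median of that library was 0.84, against 0.22 and 0.09 in L.J. alone 1 and 2. Xaf1, an interferon-induced antagonist of apoptosis inhibitors, was 9.07, 8.98 and 14.3 FPKM in L.J. alone, against 6.20, 5.24 and 5.99 FPKM in control.

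Markers of tubular damage did not separate the groups, apart from Clu. Havcr1, the gene of kidney injury molecule KIM-1, was 2.02, 3.38 and 2.06 FPKM in L.J. alone, against 2.08, 2.17 and 2.0 FPKM in control, and the lipocalin gene Lcn2 was 0.67, 6.69 and 1.22 FPKM in L.J. alone, against 3.01, 3.06 and 0.97 FPKM in control. For both the highest library was L.J. alone 2. The 17-gene injury list had a median of 0.00. Cdkn1a, the p53 target that halts the cell cycle, was 12.04, 5.97 and 10.1 FPKM in L.J. alone, against 10.4, 10.1 and 9.37 FPKM in control, and 2 of 22 p53 targets were higher without overlap (Gdf15 and Plk3), where 3.56% of all genes were, with a median of -0.04. The NRF2 target Nqo1 was 19.4, 21.3 and 18.7 FPKM in L.J. alone, against 16.7, 20.8 and 20.3 FPKM in control. Cyp1a1, a target of the aryl hydrocarbon receptor, was under the filter, at 0.38 to 0.45 FPKM in L.J. alone and 0.13 to 0.41 FPKM in control.

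Sex-biased genes were examined since the labels give no sex. Kap, an androgen-induced kidney transcript, was 45290, 37585 and 38952 FPKM in L.J. alone, against 49389, 46405 and 32135 FPKM in control, and the female-biased Slc7a12 was 1.15, 1.91 and 1.74 FPKM in L.J. alone, against 2.18, 1.32 and 1.53 FPKM in control. Both overlapped. Over 15 male-biased genes the median was 0.04. Cyp4a12a, an androgen-dependent fatty acid hydroxylase, was 451, 369 and 379 FPKM in L.J. alone, against 277, 339 and 298 FPKM in control, though 48.9% of its windows occur in another Cyp4a transcript. Of the 13 female-biased genes 2 were lower without overlap (Akr1c14 and the cytochrome P450 gene Cyp2a4, with a log2 difference of -0.41), where 6.09% of all genes were, and none higher. Their median was -0.11 and their summed level was 1981, 2044 and 2172 FPKM in L.J. alone, against 2327, 2291 and 2349 FPKM in control, without overlap. Akr1c18, which degrades progesterone, was 12.7, 13.4 and 17.7 FPKM in L.J. alone, against 50.3, 54.6 and 14.5 FPKM in control, so control 3 stood with L.J. alone.

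Some genes differed most among libraries of 1 group. Hdc (Entrez 15186, chromosome 2), histidine decarboxylase, the enzyme that makes histamine, was 206, 9.20 and 79.6 FPKM in L.J. alone 1, 2 and 3, against 1.43, 1.51 and 1.88 FPKM in control. The groups did not overlap and the log2 difference of 4.41 was the highest of any tested gene, but its range within L.J. alone was 4.35 (SE of the difference 0.94, limma adjusted p = 0.365). Dbp, Ces2h, Hist1h2bj, Ucp1, Bik, Gna14 and Gje1 were the other genes with the widest ranges within L.J. alone, and of these only Dbp did not overlap with control. Within control the widest were the beta-globin gene Hbb-bs, listed at 0 in control 1 and at 372 and 18.3 FPKM in control 2 and 3, and Hbb-bt, likewise listed at 0 in control 1. Hbb-bs was 152, 196 and 191 FPKM in L.J. alone. The beta-globin gene Hbb-b1 was lower without overlap, at 165, 266 and 216 FPKM in L.J. alone, against 518, 479 and 373 FPKM in control (log2 difference -1.09, SE 0.19, limma adjusted p = 0.239), and so was Hbb-b2 (-1.13). Hbb-bs and Hbb-bt share 65.8% and 58.3% of their windows with each other, so reads of these 2 may be shared. Hbb-b1 and Hbb-b2 were not in the window comparison. Control 1, with Hbb-bs and Hbb-bt at 0, had Hbb-b1 at 518 FPKM. The part of genotype in these outbred mice was not tested. The sum over 4 beta-globin genes was 353, 524 and 453 FPKM in L.J. alone, against 576, 953 and 430 FPKM in control, which overlapped.

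**Figure D5:**
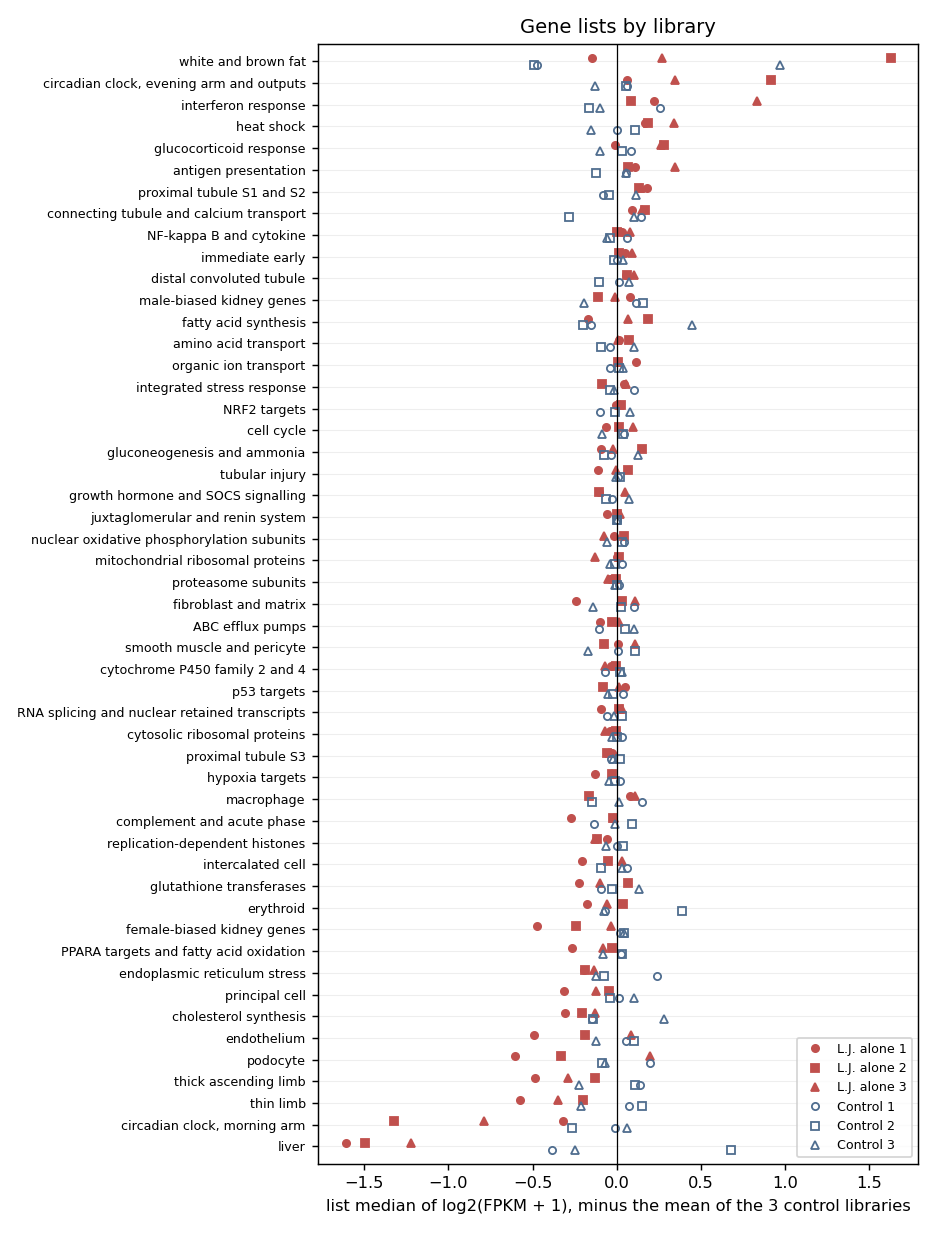
Median log2(FPKM + 1) of each gene list with at least 5 tested members, less the mean of the 3 control libraries, on the x axis, for each L.J. alone library (filled, upper) and control library (open, lower), ordered by the log2 difference. The liver and morning-arm clock lists stand apart at the bottom, with medians of -1.51 and -0.87, and the fat list at the top spreads widely in both groups.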

How the data were processed

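RNA was extracted from frozen kidneys with Trizol and a column kit, per the labels' protocols. The submitters' processing notes name Bowtie 0.12.2 and mm10 without roles. The sources used here give no counting tool, annotation or strand setting. The authors deposited FPKM values for 21004 genes, rounded to 2 decimals, per the file headers. Absolute depth is unknown, so no interval was computed. Of the symbols, 26 had been turned into dates and were restored, and 1 repeat was dropped, leaving 21003.

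Values were transformed to log2(FPKM + 1). The 6 libraries of the 2 groups were fitted with limma 3.58.1 (R 4.3.3, trend option, two-sided, Benjamini-Hochberg), after a filter of FPKM at least 1 in at least 3 of them. The method was tested on simulated data. The busulfan libraries were left out of the fit because they were known not to be alike.

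The comparison, gene lists and named genes were chosen with earlier results of these data known. Named were the 12 genes per direction with the smallest p among non-overlapping genes other than unnamed ones, up to 4 members of each list by p, members of lists the text turns on, preset genes and the 8 with the widest range within each group; a few other list members, such as Cyp51, were named after their values were seen. A few genes under these rules are not reported here. Lists were counted over all members in the table. Windows of 50 bases came from GENCODE M21, and coordinates and promoters from RefSeq GRCm38.p6, which held 20841 of the identifiers. Alternatives tried were the pseudocount, filters, scalings, other library sets, weighting of libraries, a block for replicate number, no trend, a length and GC correction, and each library left out. Figures used Python 3.11.15, pandas 2.3.3 and matplotlib 3.10.9.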

Additional observations from a re-analysis of the deposited data

Results flagged for a closer look

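Among the 104 named genes followed through the alternatives, there were 5 in which every L.J. alone library lay on one side of control while every busulfan plus L.J. library lay on the opposite side of busulfan; the difference between these differences was not tested. Genes outside the 104 were not searched, so no share of all genes stands beside this count. Many of the 104 were named because their L.J. alone and control libraries did not overlap. Named genes that went the same way in both comparisons were not counted. Among them, Fabp1, Ahsg and Fgb were lower with L.J. without overlap in both. Busulfan 1 and 2 stood apart from busulfan 3, with Kap at 10398 and 5031 FPKM, against 50482 FPKM in busulfan 3, and their part in these differences was not tested. Akr1c14 differed by -0.93 (L.J. alone minus control, log2) and by 2.16 (busulfan plus L.J. minus busulfan), with 207, 166 and 175 FPKM in busulfan plus L.J. and 20.8, 30.4 and 100.1 FPKM in busulfan. Hdc differed by 4.41 and by -2.58, with 1.60, 1.83 and 1.62 FPKM in busulfan plus L.J. and 8.99, 127 and 2.25 FPKM in busulfan. Phlda1 differed by 0.29 and by -0.65, with 7.10, 7.07 and 6.47 FPKM in busulfan plus L.J. and 10.4, 12.1 and 11.7 FPKM in busulfan. Clock differed by -0.16 and by 0.30, with 10.9, 8.33 and 8.09 FPKM in busulfan plus L.J. and 7.16, 7.69 and 6.64 FPKM in busulfan. Cyp51 differed by -0.47 and by 0.90.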

How the results depend on the processing

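The count of called genes was 0 under most alternatives. Without a filter it was 1 (Fgl1, limma adjusted p = 0.0380), and with library weights it was 5: Acot1, Akr1c14, Cys1, Fabp1 and Per1, each with a limma adjusted p of 0.0463. Over all alternatives the adjusted p of the first 3 and Per1 ran from 0.0463 to at most 0.999, and that of Fabp1 from 0.0310 to 0.294. With each library left out in turn it ran from 0 to 3: Hdc and Ubxn10 without L.J. alone 2, and Akr1c18, Cck and Fabp1 without control 3. With all 12 libraries in the fit, 320 genes had an unadjusted p under 0.05, against 903; without control 1 there were 579. Genes without overlap numbered 860 higher after quantile normalization, and with a library left out, which leaves fewer values to overlap, 875 to 1367 higher and 1367 to 2273 lower. With the replicate number as a block 0 genes were called. Correlations of deviations between same-numbered libraries were -0.00, -0.04 and -0.10, and those between differently numbered libraries ran from -0.096 to 0.147. Nothing in these showed a pairing, but with 3 libraries per group they cannot settle it. Of 1870 values of named genes, 1841 kept their direction and side of the threshold, 9 came under it and 20 changed sign. The sign changes were Kap (0.00), Lcn2 (0.027) and Slc7a12 (0.020) after quantile normalization, Lcn2 (0.11) and Slc7a12 (0.059) with library weights, and Slc7a12 (0.013) after the length and GC correction. With libraries left out they were Kap (-0.24 to 0.068), Lcn2 (-0.72 to 0.38), Slc7a12 (-0.14 to 0.090), Nqo1 (-0.055 to 0.097), Havcr1 (-0.020 to 0.25), Cdkn1a (-0.31 to 0.14) and Per2 (-0.078 to 0.36), as ranges; the cause was not tested. Of 198 list medians 186 moved by less than their spread. With a pseudocount of 0.1 the liver median was -2.29. The rounding of the deposited values limits genes near 0.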
